A study of Homo sapiens with 2 samples.

Results

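EXT1, ZFAND3, HDAC9, FRMD6, ZNF804A, NAV3 and ADK are 7 protein-coding genes whose introns carried large numbers of crosslinked RBM47 tags. They were chosen by the summed tags of their clusters labelled exactly as intron, a measured value of these same libraries. Their levels are therefore given as a description and are not tested. The deposited table listed 7131 such clusters in these genes, of 99388 intron clusters in 4177 genes and 233546 clusters in all. With clusters of every label, the 7 genes had 7318 clusters and 158753 tags.

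The libraries came from HITS-CLIP, in which ultraviolet light links proteins to RNA in living cells and the fragments recovered with one of them are sequenced. Each fragment, counted once after removal of amplification copies, is a tag, and overlapping tags form a cluster. Both samples were of MDA231-BrM2a, a non-clonal brain metastatic derivative of the triple-negative breast cancer line MDA-MB-231. The cells made a Flag-tagged wild-type RBM47 from a transgene switched on over 3 days by doxycycline at 1 ng/ml. There was 1 group with 2 replicates and no control library is analysed here, so pull-down background could not be assessed. RNA amounts are not used here either, so more RNA and more binding per RNA cannot be told apart. The listed clusters held 999047 tags of replicate 1 and 3489697 of replicate 2. These sums are not the depth of the libraries, and every scaling to tags of a replicate refers to them. The list holds clusters of 5 or more tags, all with some tags in both replicates. As a check of the cell line, the mesenchymal genes VIM and CD44 had 3345 and 8676 tags, no cluster was listed for the hormone receptors ESR1 and PGR or for the epithelial cadherin CDH1, and EPCAM had 11 tags. These are bound fragments and not expression levels. Only 7712 genes had any listed cluster, so a missing cluster by itself says little about the cells.

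Introns are transcribed into pre-mRNA and removed by splicing, so an RNA-binding protein meets them mainly in the nucleus, on transcripts not yet fully spliced. Proteins bound there can influence splice site choice, and many also coat long introns without a known effect. RBM47 binds RNA through RNA recognition motifs and has been linked to splicing, RNA editing and mRNA stability. The 7 genes encode unrelated proteins. EXT1 is a glycosyltransferase that elongates heparan sulfate chains. HDAC9 is a class IIa histone deacetylase, and ZFAND3 and ZNF804A are zinc finger proteins. FRMD6 is a FERM domain protein linked to the Hippo pathway, NAV3 belongs to the microtubule-associated neuron navigators, and ADK phosphorylates adenosine.

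The introns of the 7 genes together held 147945 tags, or 14.1% ± 1.57 (SD, n = 2) of all intron tags per replicate, in 7.17% of the intron clusters. EXT1 had 10030 intron tags in replicate 1 and 40929 in replicate 2, the highest of all genes in both. ZFAND3 had 5228 and 19571, and HDAC9 4341 and 14554. These 3 genes kept places 1 to 3 in each replicate. FRMD6 had 3812 and 13479 tags, and ZNF804A 3859 and 13380. Their order turned between the replicates, so the pair was not separated. NAV3 followed with 2623 and 9019 tags and ADK with 2115 and 6897.

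Scaled to 1000 clustered tags of the replicate, EXT1 introns reached 10.9 ± 1.19 (SD, n = 2) and ZFAND3 introns 5.42 ± 0.265. HDAC9 reached 4.26 ± 0.123, ZNF804A 3.85 ± 0.0202 and FRMD6 3.84 ± 0.0331. NAV3 reached 2.60 ± 0.0290 and ADK 2.05 ± 0.0994. Apart from FRMD6 and ZNF804A, each gene was above the next in both replicates. The wider spread of EXT1 came with a low replicate 1 share of its intron tags, 19.7% (Wilson 95% interval 19.3 to 20.03). The share was 22.3% over all clusters, to which the tags were scaled, and 24.1% over all intron clusters. Over all clusters of at least 10 and at least 30 tags it was 21.1% and 20.8%. In ADK, the lowest of the 7, the share was 23.5% (22.6 to 24.4). These intervals cover counting error only.

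**Figure D1:**
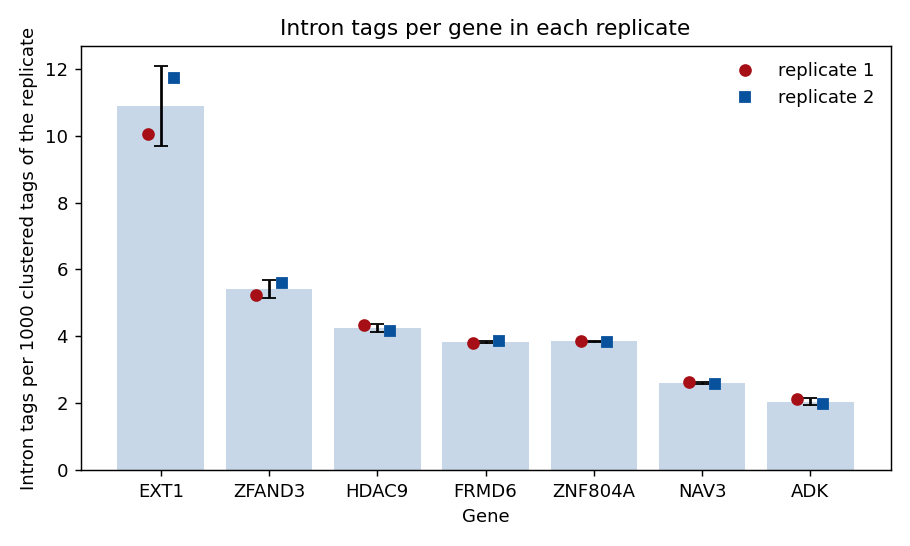
Intron tags per 1000 clustered tags of the replicate (vertical axis) in each of the 7 genes, with points for replicates 1 and 2 and bars for the mean ± SD (n = 2). EXT1 stood at 10.04 and 11.7, and every other gene was below 6 in both replicates.

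The genes lie on 7 chromosomes, and their intron clusters span the following hg18 positions. EXT1 (Entrez 2131) spans 118882494 to 119191255 on chromosome 8, minus strand, and is the single one of the 7 on that strand. ZFAND3 (60685) spans 37896244 to 38226070 on chromosome 6, and HDAC9 (9734) 18515701 to 19002043 on chromosome 7. FRMD6 (122786) spans 51029624 to 51264136 on chromosome 14, and ZNF804A (91752) 185173216 to 185491760 on chromosome 2. NAV3 (89795) spans 76859179 to 77121600 on chromosome 12, and ADK (132) 75629024 to 76134781 on chromosome 10. No exon or intron number is given, since the annotations at hand are of other builds.

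The choice followed the summed tags closely but not strictly. MIR100HG, a long noncoding RNA, had 12184 intron tags and ranked between ZNF804A and NAV3. COL8A1, a protein-coding collagen gene, had 10208 intron tags and ranked above ADK with 8867, yet was not among the 7. The next protein-coding genes below ADK were SAMD4A with 7209 tags, FHIT with 6807 and FAM155A with 6780. There was no wide step in values at the edge of the selection.

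A large sum of tags is not the same as dense binding, since these are long genes. As intron borders in the build of the files are not used here, length was taken as the span from the first to the last intron cluster. It ran from 235 kb in FRMD6 to 506 kb in ADK, against a median of 95.4 kb over 958 genes with at least 20 intron clusters. EXT1 had 164 tags per kb of span and ranked 2 of 958, behind the noncoding LINC00657 and ahead of AIMP1. ZFAND3 had 74.1 tags per kb (rank 14), FRMD6 72.6 (rank 16) and ZNF804A 53.3 (rank 28). NAV3 had 43.8 (rank 36), HDAC9 38.3 (rank 47) and ADK 17.5 (rank 143). The order by density thus differed from that by summed tags, and 6 of the 7 genes were among the first 47 by density. Scaled to 1000000 clustered tags of the replicate, density was 35.3 ± 3.87 (SD, n = 2) tags per kb in EXT1, 16.4 ± 0.804 in ZFAND3, 16.4 ± 0.141 in FRMD6 and 4.05 ± 0.197 in ADK. ZFAND3 and FRMD6 did not differ beyond their spread.

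Length and density were high together in these genes. Among 197 other genes with a span of at least 200 kb, the densest had 21.9 tags per kb and the median was 1.84. Every one of the 7 except ADK exceeded that highest value. This follows in part from the selection, which favours long and dense genes, and is given with no test.

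**Figure D2:**
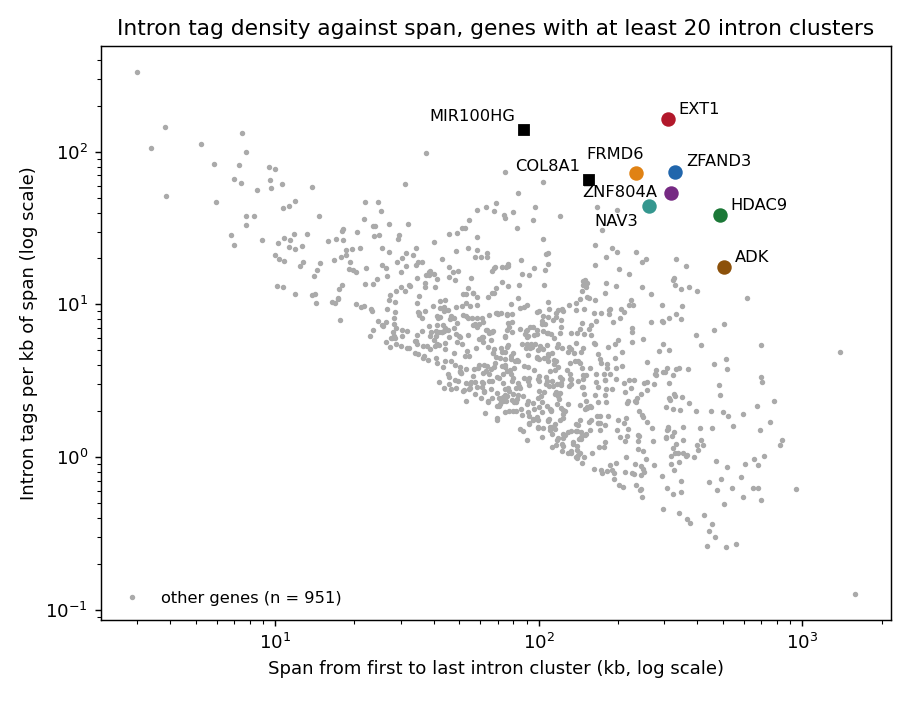
Intron tags per kb of span (vertical axis, log scale) against the span in kb (horizontal axis, log scale) for 958 genes with at least 20 intron clusters. Coloured circles are the 7 genes, black squares are MIR100HG and COL8A1, and grey points are the other genes. The 7 genes lie at the upper right, with spans of 235 to 506 kb and 17.5 to 164 tags per kb.

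Both the number of clusters and their depth were high. The comparisons with other genes follow in part from the choice by summed tags, which number and depth make up, and were not tested. ZFAND3 had 1328 intron clusters, HDAC9 1303, EXT1 1186, ZNF804A 1007, ADK 872, NAV3 738 and FRMD6 697, against a median of 46 in the 958 genes. ZFAND3 and HDAC9 ranked 1 and 2 by that number. The median intron cluster held 20 tags in EXT1, 15 in FRMD6 and 13 in ZFAND3, but 8 in ADK, close to the median of 7 over the 958 genes. As listed, ADK thus ranked high through many shallow clusters and EXT1 through clusters both many and deep. The numbers depend on where clusters are split. With clusters closer than 50 nt merged, HDAC9 had 777, ZFAND3 635, ADK 619, ZNF804A 510, EXT1 409, NAV3 385 and FRMD6 277. Of 305 intron clusters with at least 100 tags in the whole table, 159 lay in the 7 genes, and 116 of these were in EXT1. Clusters were also longer where they were deeper, with a median of 115 nt in EXT1 and 79 nt in ADK. Intron clusters covered 60.7% of the span in EXT1, 46.6% in ZFAND3, 37.4% in FRMD6 and 15.4% in ADK.

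No single site carried the signal. The largest intron cluster held 1.69% of the intron tags in EXT1, 1.15% in ZFAND3, 1.09% in HDAC9, 2.07% in FRMD6, 0.978% in ZNF804A, 2.52% in NAV3 and 0.710% in ADK. The median of that share over the 958 genes, most of which have far fewer clusters, was 6.07%. The top 10% of clusters held 47.06% of the tags in EXT1 and 26.2% in ADK, with the other 5 genes between 32.1% and 37.05%. The median was 22.7% in the 958 genes and 20.6% in the 197 other genes with a span of at least 200 kb, whose 90th percentile of 28.0% was exceeded by 6 of the 7 genes. Tags were thus spread over many clusters, with a larger share in the top 10% than in most long genes. That share depends on depth. The median cluster of the other long genes held 6 tags (median over genes), near the list minimum of 5, which limits their share. With at least 30 tags per cluster, the median share of the 7 genes was 24.1% instead of 35.6%. The 2 largest clusters adjoined each other in FRMD6 and EXT1. In FRMD6 they held 353 and 233 tags (chromosome 14, plus strand, 51170148 to 51170691 and 51170689 to 51171071). In EXT1 they held 856 and 815 tags (chromosome 8, minus strand, 119151690 to 119152325 and 119152331 to 119153222). The largest NAV3 cluster (chromosome 12, plus strand, 76944006 to 76944720) held 67 tags of replicate 1 and 223 of replicate 2. Positions are in hg18, as listed, and whether they count from 0 or 1 is not stated.

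Tags were spread over nearly the whole of each span. All 31 windows of 10 kb in EXT1 held an intron cluster, as did all 33 in ZFAND3, 32 in ZNF804A and 27 in NAV3. In HDAC9 47 of 49 windows held a cluster, in ADK 49 of 51 and in FRMD6 23 of 24. The longest stretch with no intron cluster was 3.28 kb in EXT1 and 2.96 kb in ZFAND3, but 15.1 kb in FRMD6, 17.7 kb in HDAC9 and 19.1 kb in ADK. Among the 204 genes with a span of at least 200 kb, 7 had a cluster in every window. Besides these 4 they were FMN1, IL1RAPL1 and PDLIM5, with spans of 333, 234 and 203 kb. Occupancy rises with the number of clusters, which the choice by summed tags favours, and it was not tested. It also depended on the tag minimum. With at least 30 tags per cluster, and the span drawn from those, 38.5% of windows were occupied in HDAC9, 42.9% in ADK and 56% in NAV3. In the other genes it was 83.9% to 100%.

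Coverage did not mean an even level. From the first to the last intron cluster, 5′ to 3′, tags fell off towards the end in most of the genes. In ZNF804A the first of 3 equal parts of the span held 65.6% ± 1.34 (SD, n = 2) of the intron tags and the last 5.14% ± 0.542. In HDAC9 the shares were 63.5% ± 2.01 and 15.2% ± 0.657, and in EXT1 the first part held 59.4% and 59.6% in replicates 1 and 2 and the last 9.21% and 8.80%. In NAV3 they were 45.9% ± 0.00337 and 7.79% ± 1.28, and in ZFAND3 44.4% ± 1.62 and 13.2% ± 1.38. ADK and FRMD6 had most of their tags in the middle part, 52.05% ± 1.06 and 72.1% ± 0.800. In ADK the first part still exceeded the last, 29.9% ± 0.136 against 18.02% ± 1.20, and in FRMD6 it was lower, 7.95% and 7.94% in replicates 1 and 2 against 20.5% and 19.4%. The first part was thus above the last in 6 of 7 genes, and each order was the same in both replicates.

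A lean to the start was common in these data. The first part exceeded the last in 123 of the 197 other genes with a span of at least 200 kb. Their median difference was 21.6 percentage points, against 38.5 in the 7 genes. The 10th and 90th percentiles of the 197 were -48.7 and 76.8, so that each of the 7 genes fell within the usual range. When each cluster was counted once instead of by its tags, the median over the 7 genes was 15.2. EXT1 then fell from 50.8 to 7.42 and ZFAND3 from 32.5 to 15.2, HDAC9 from 49.5 to 25.9 and ZNF804A from 61.4 to 39.2. NAV3 had 30.5, ADK 8.14 and FRMD6 -21.1. In EXT1, the first part thus held deeper clusters more than it held more of them. The direction in FRMD6 and ADK depended on the minimum. With at least 10 tags per cluster the difference in FRMD6 was 28.6 instead of -11.7, and with at least 30 tags ADK changed from 12.5 to -83.7.

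**Figure D3:**
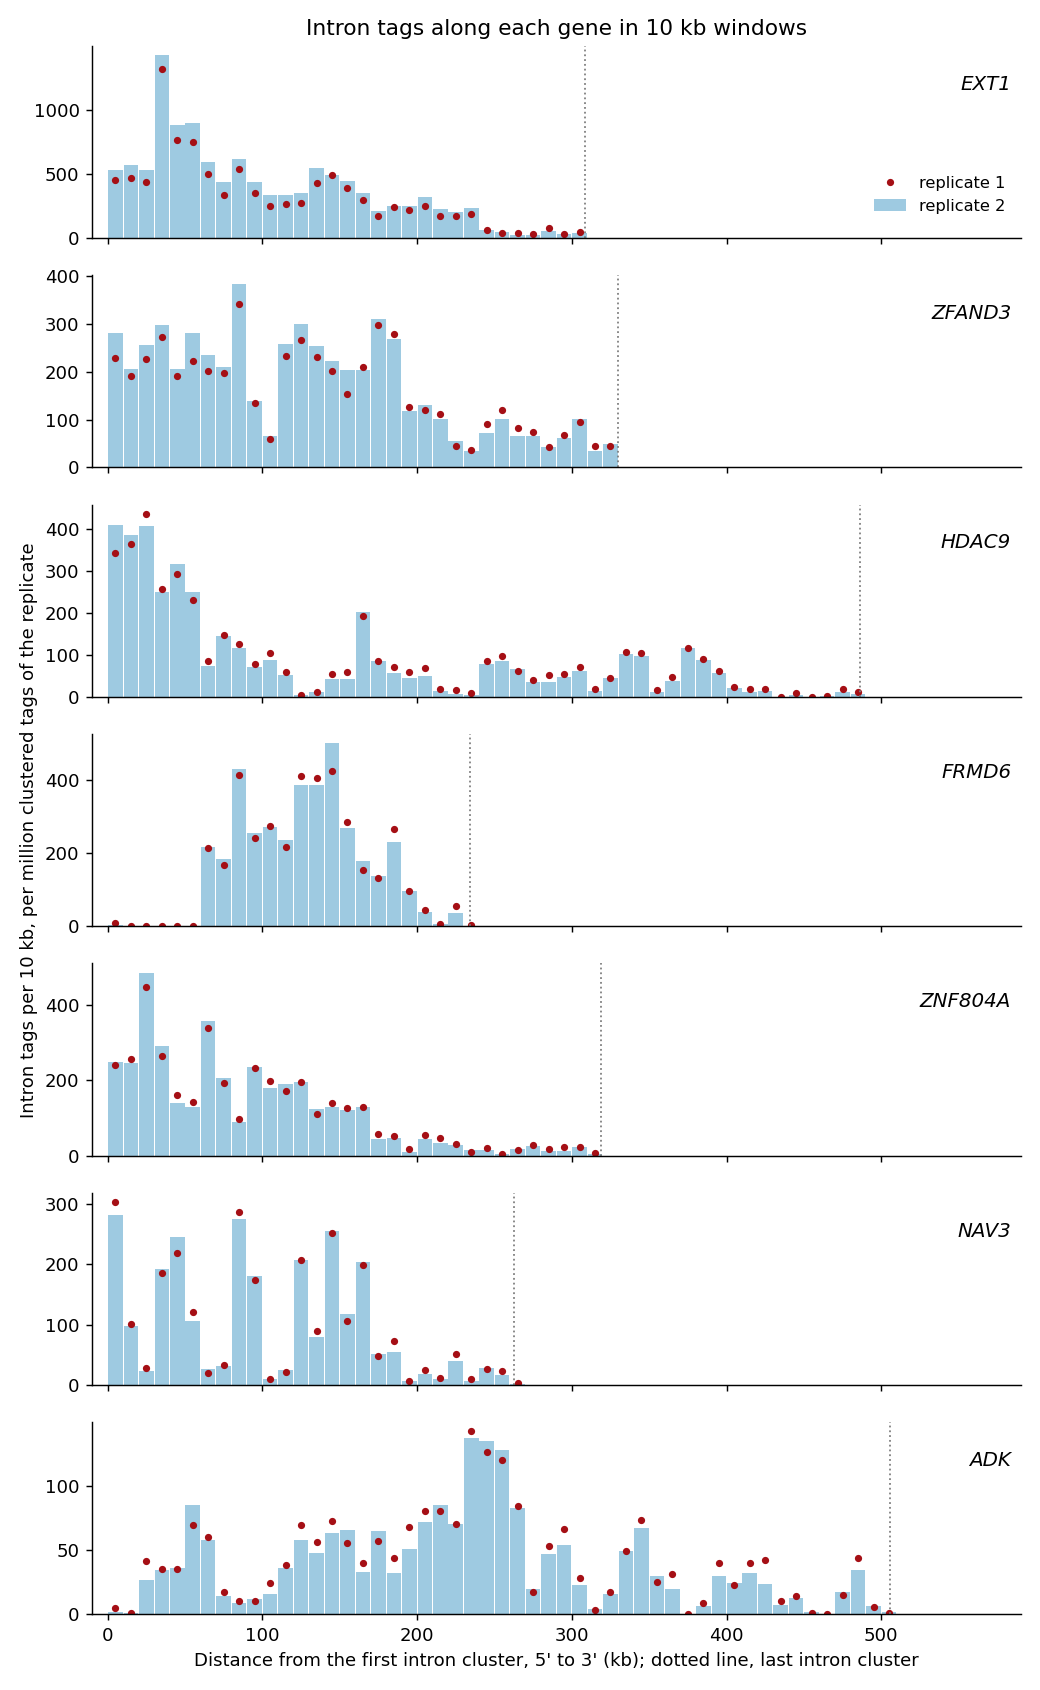
Intron tags per 10 kb window, per 1000000 clustered tags of the replicate (vertical axis, own scale in each panel), against the distance from the first intron cluster in kb, 5′ to 3′. Bars are replicate 2, points are replicate 1 and the dotted line marks the last intron cluster. Levels are higher early than late in EXT1, HDAC9 and ZNF804A, with rises in between, and in EXT1 they peak at 30 to 40 kb. They start after 60 kb in FRMD6, rise and fall several times in NAV3 and peak at 230 to 260 kb in ADK.

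In EXT1, 3 windows from 30 to 60 kb held 27.5% of the intron tags, 2825 in replicate 1 and 11162 in replicate 2. The level there was 464 tags per kb, against 233 in the 30 kb before. From 60 to 240 kb it was 157 tags per kb and in the last 70 kb it was 18.2. Clusters labelled as exon mark part of the exon layout. The last drop, at 240 kb, came before the next coding sequence cluster, which lay 273 kb from the first intron cluster. The stretch before that cluster, back to an unclassified exon cluster at 24.2 kb, held 87.9% of the intron tags, 87.7% in replicate 1 and 88.04% in replicate 2. A further 10.7% lay before the unclassified exon clusters. The 8 short stretches between the exon clusters near the 3′ end held 0.0119% to 0.523% each.

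ZFAND3 had the flattest profile of the 7, its highest window holding 1.93 times the tags of its median window, against 3.14 to 7.70 times in the others. Over the first 190 kb, windows held from 287 to 1656 tags and 81.0% of the intron tags, with a low between 90 and 110 kb. Beyond 190 kb the level fell from 104 to 33.1 tags per kb. The long stretch from the first exon cluster to the coding sequence cluster at 241 kb held 89.03% of the tags, and 3 stretches after it held 3.61%, 3.32% and 4.04%. In ZNF804A the first 170 kb held 91.0% of the intron tags at 90.9 tags per kb, and the rest had 10.2 tags per kb. All but 2.40% of its intron tags lay between the first coding sequence cluster and the next at 266 kb.

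HDAC9 was strongest at its start. Its first 60 kb held 8845 tags, 44.3% of the intron tags in replicate 1 and 48.4% in replicate 2, at 147 tags per kb. The rest of the span averaged 22.7 tags per kb in separate rises, the highest of them just after 160 kb. That rise followed 15 clusters labelled with 3′UTR at 157 to 159 kb, inside the span, which held 676 tags. The 7 clusters of 3′UTR at the far end of the gene held 175. Bound 3′UTR sequence in the middle of the gene thus had more tags than that at its end, 130 against 33 in replicate 1 and 549 against 145 in replicate 2.

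FRMD6 was nearly empty at its start. Its first 60 kb had 7 clusters with 38 tags, 12 in replicate 1 and 26 in replicate 2, and the next window alone had 952. From 60 to 160 kb windows held 805 to 2139 tags each and together 80.8% of the intron tags. A 5′UTR cluster lay at 77.3 kb, within this filled region, and the stretch from it to an unclassified exon cluster at 165 kb held 76.7%. FRMD6 also had the largest part of its tags outside introns. Its 3′UTR clusters held 2408 tags, 11.7% of the gene's total, the largest with 1024.

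NAV3 tags were divided over several stretches between exon clusters, as were those of HDAC9 and ADK. In its first 120 kb, windows of 800 to 1278 tags were separated by windows of 43 to 140, with some between these levels. The gene had 34 clusters of coding sequence. The stretch from 118 to 174 kb held 36.05% of the intron tags, and stretches starting at 0.024, 28.0 and 80.7 kb held 15.4%, 18.5% and 18.04%. In 2 of these, the first and the one from 80.7 kb, the 5′ side of the midpoint held 82.8% and 88.2% of the tags. In the other 2 it held 49.1% and 49.0%. After 170 kb the level was 10.6 tags per kb.

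ADK had the lowest level of the 7, in tags and in tags per kb. Its first 20 kb held 16 tags. Windows from 20 to 230 kb had 40 to 362 tags, 3 windows from 230 to 260 kb had 557 to 606 and together 19.8% of the intron tags, and later windows had 0 to 361. Of the long stretches bounded by clusters with coding sequence, the one from 25.5 to 195 kb held 36.6% of the tags. That from 199 to 325 kb held 44.2%, and those from 326 to 401 kb and from 401 to 506 kb held 10.9% and 8.19%. In this order, the 5′ side of the midpoint held 39.6%, 73.8%, 70.9% and 63.2%. A lean to the 5′ side was thus common in these stretches but not general.

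**Figure D4:**
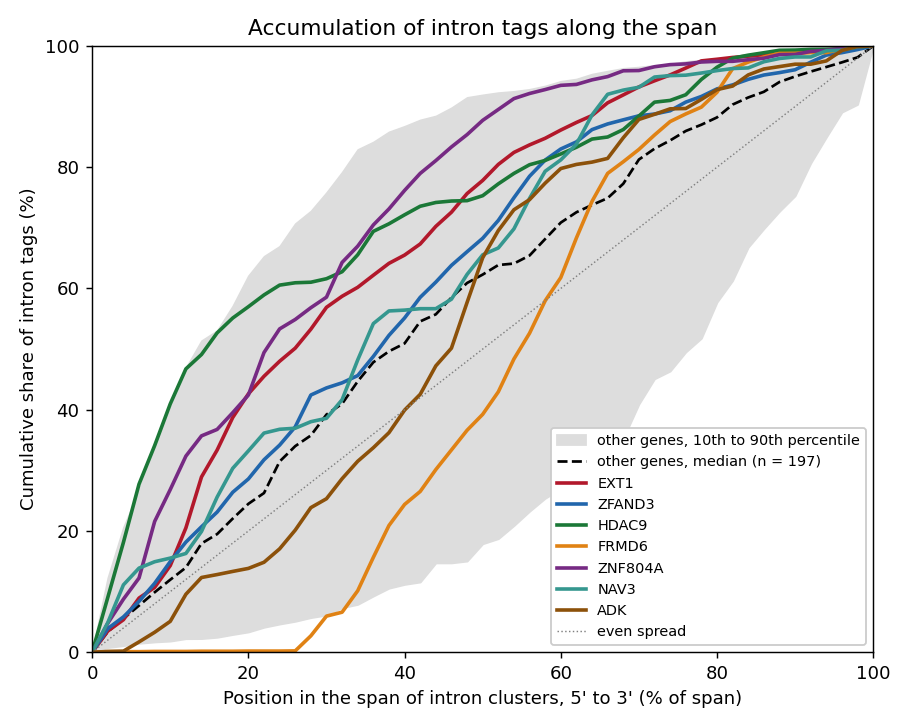
Cumulative share of intron tags (vertical axis, %) along the span of intron clusters, 5′ to 3′ (horizontal axis, % of span), for the 7 genes. The dashed line and grey band are the median and the 10th to 90th percentiles of 197 other genes with a span of at least 200 kb. EXT1 reached 77.8% of its tags at 50% of the span, where the median of the other genes was 62.3%, and FRMD6 stayed near 0 over the first 20% of its span.

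Introns held most of each gene's tags. The share was 97.7% ± 0.0775 (SD, n = 2) in ZNF804A, 97.3% ± 0.276 in ZFAND3, 96.4% ± 0.371 in ADK, 94.4% ± 0.703 in HDAC9, 94.1% ± 0.672 in NAV3, 93.0% ± 0.157 in EXT1 and 83.1% ± 0.478 in FRMD6. The median was 62.2% in the 958 genes but 83.7% in the 197 other long genes, with a 90th percentile of 99.4%. Against those long genes FRMD6 was below the median, and the other 6 were above it and within the usual range. The share was not used as such in the choice, but its numerator was. Outside introns, EXT1 had 2033 tags in clusters of coding sequence and 617 in the cluster that joins coding sequence and 3′UTR. ZFAND3 had 573 tags and NAV3 271 in 3′UTR clusters.

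Strand was checked next. No cluster was listed on the opposite strand within any of the 7 spans, over a summed 2446 kb, against 147945 intron tags on the strand of the genes. The same held in 179 of the 197 other long genes and 896 of the 958. No cluster of another gene lay within the spans on the same strand either. Clusters stopped at the 5′ ends, with 0 tags in the 50 kb before the first cluster in 6 genes and 18 tags in FRMD6. Past the 3′ end, EXT1 had 1691 tags in 50 kb, of which 1318 were in 35 clusters labelled as within 10 kb downstream, and HDAC9 had 736. ZNF804A had 243, ADK 66, ZFAND3 14, NAV3 5 and FRMD6 0. None of these downstream clusters carried a gene name.

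The profiles were alike in the replicates. Across 10 kb windows, Spearman's rho between the replicates was 0.975 in ADK and 0.992 in HDAC9, with the other genes between (24 to 51 windows). Windows share their library, so this carries no p-value. The list holds only clusters with tags in both replicates, which by itself favours agreement across windows. Across single clusters rho was 0.819 in EXT1 and 0.765 in FRMD6 but 0.254 in ADK, where the median cluster has few tags. The split of each cluster between the libraries was then tested against the replicate 1 share of 22.3% over all clusters, using the exact binomial test, two-sided, with p-values adjusted after Benjamini and Hochberg. Of the 7131 intron clusters in these genes 0 were called, against a background of 0.0111% of all clusters (26 of 233546). At an unadjusted p under 0.05 there were 211, or 2.96%, against 3.04% of all clusters. With the share of all intron clusters, 24.1%, as the reference, 2 EXT1 clusters passed. The lower adjusted p of these in the exact test was 0.0431, in a cluster with 12 replicate 1 and 118 replicate 2 tags. The test compares these libraries and not conditions. Small clusters could hardly be called, as a split of 7 to 1 tags had an adjusted p of 0.491 in the exact test. Clusters with tags in 1 replicate only are not listed and could not be tested. The 0 calls therefore do not show that the replicates agree in single clusters.

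Intron tags of relatives are given as a description. Of 27 relatives by family or pathway, 14 had any listed cluster, 10 had an intron cluster and 17 had none in an intron. In the whole list, 4177 of 7712 genes with any cluster had an intron cluster. Over the 10 relatives with intron clusters the median was 55.5 intron tags, against 33 over all 4177 genes. FRMD5, another FERM domain gene, came first with 1292 intron tags in 179 clusters at 5.72 tags per kb. ZFAND6 had 465 intron tags and ZFAND1 176, and the neuron navigator NAV2 had 446. EXT2, the partner of EXT1 in heparan sulfate synthesis, had 38, and EXTL2 had 44. ZFAND4, FRMD3 and FRMD4B had 5 to 7 intron tags each. HDAC4 had 3 clusters with 19 tags, none in an intron, and no cluster was listed for HDAC5 or HDAC7. ZFAND5, NAV1 and AHCY had 600, 102 and 5 tags, all outside introns. Of the genes of adenosine metabolism, NT5E, which makes adenosine outside the cell, had 5231 tags but 67 in introns. As the 7 genes were chosen for large sums, lower sums in the relatives follow from the choice.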

How the data were processed

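Per the labels and the study's methods, the authors mapped reads with Novoalign to hg18 (settings not given in the sources used here), collapsed them by a degenerate barcode and clustered tags on Galaxy. The deposited values are counts of unique tags per cluster, for each replicate and in total. Each cluster carries the authors' location label.

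The 7 genes, their relatives and the tests were chosen with earlier results of these data known. Genes named are the 7, those ranked above the lowest of them, 3 protein-coding genes next below, listed relatives, the first 3 by density and the most alike in window occupancy. All 233546 deposited clusters were used, with the authors' total for levels and the replicate columns for errors. A cluster belongs to the window or part that holds its midpoint. Stretches of several windows were bounded after the profiles were seen. Biotypes came from RefSeq on GRCh38.p14, with 4156 of 4177 gene IDs matched. The references at hand are of other builds, so no reference coordinate or sequence was used for the results. Gene coordinates of GRCh37 served only as a check of the build. Outside the GRCh37 gene fell 0 of 1303 HDAC9 intron clusters, 245 of 1186 in EXT1, and all 697 of FRMD6 and 738 of NAV3. Also outside were 278 of 1328 in ZFAND3, 593 of 872 in ADK and 977 of 1007 in ZNF804A.

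The listed clusters held 999047 and 3489697 tags, which is not the depth of the libraries, and values were scaled to these sums. The median cluster held 2 and 6. The labels do not say whether replicates were separate cultures. The exact binomial test was run on simulated data in which the split of 200 clusters of at least 100 tags was changed. It does not show how well changes in smaller clusters, which are most of those here, would be found. Alternatives were tag minimums, labels, tag columns, spans, windows, merging within 50 nt and leaving out a replicate. Python 3.11.15, pandas 2.3.3, numpy 2.4.6, scipy 1.17.1 and matplotlib 3.10.9 were used.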

Additional observations from a re-analysis of the deposited data

How the results depend on the processing

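Of 55 alternatives for the values summed or taken as a median over the 7 genes, 28 stayed within the spread of the replicates, a 95% Wilson interval, 0.1 for rho or 1.5 times for a count. The other 27 moved. With at least 10 and at least 30 tags per cluster, the genes held 22.8% and 40.7% of all intron tags instead of 14.7%, in 4141 and 1152 clusters instead of 7131. The intron share of their tags was then 92.4% and 89.5% instead of 93.2%, the density 12.4 and 10.6 instead of 13.6 tags per kb per 1000000 clustered tags, the occupied windows 89.3% and 68.2% instead of 98.0%, and the share in the top 10% of clusters 30.9% and 24.1% instead of 35.6%. Every label that includes intron gave 12.9% of intron tags. Merging clusters closer than 50 nt left 3612, with 52.1% of tags in the top 10%. Windows of 5 and 20 kb were occupied in 93.3% and 100%. The first part minus the last was 42.1 percentage points with the span over all labels, 29.1 with 5 parts, and, chosen after the data were seen, 15.2 with each cluster counted once and 36.9 without the largest cluster of each gene. Against the intron reference, 2 clusters were discordant instead of 0, and no other setting called any.

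With each replicate left out in turn and no test possible, the share of intron tags was 12.97% to 15.2%, the intron share 93.1% to 93.6%, the density 13.1 to 13.8, the occupied windows 78.6% to 96.3% with 5 tags required in that replicate, the first part minus the last 37.2 to 39.0 and the top 10% share 34.4% to 36.2%. Replicate 1 alone gave the lowest occupancy, since fewer clusters reach 5 tags there.

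Of 350 values for single genes, 184 stayed, 163 moved and 3 reversed. The first part minus the last became 28.6 (10 tags) and 11.6 (30 tags) in FRMD6, because the sparse start left the span, and -83.7 (30 tags) in ADK, where 21 clusters remained. No paired analysis was possible because all libraries belong to the Flag-RBM47 group. Replicate 1, with a median of 2 tags per cluster, sets the precision for any single cluster.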

Other observations

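The sum of both replicate columns exceeded the deposited total in 12.2% of the ADK intron clusters and 24.2% of those in FRMD6, with the other genes between. The excess came to 0.871% of the intron tags in EXT1 and to 1.21% to 1.64% in the others. In 40 EXT1 clusters and 59 ZFAND3 clusters it equalled or exceeded the lower of the replicate values.

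The HDAC9 intron cluster with the second largest number of tags was singled out after its values were seen. It was 58 nt long (chromosome 7, plus strand, 18541815 to 18541873) and held 60 replicate 1 tags and 139 replicate 2 tags. The largest HDAC9 intron cluster held 202 tags over 854 nt, and the median length in the gene was 84 nt. Of the 3 largest intron clusters in each of the 7 genes, the other 20 were 298 to 1092 nt long.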
